A study of Mus musculus with 6 samples.

Results

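The genes described here encode 9 receptors for hematopoietic growth factors: Csf1r, Csf2ra, Csf2rb, Csf2rb2, Csf3r, Kit, Flt3, Il3ra and Epor. They were chosen by name, and the platform's annotation gave each of them 1 probe set of its own, so 9 of 35512 probe sets and 9 of 19847 tested genes are members. Transcripts were read on 6 whole-transcript arrays from a mouse leukemia cell line labelled MLL-AF10, after the fusion of the histone methyltransferase MLL with AF10 that all 6 samples share. Cells of 3 samples received an IKK inhibitor at 0.5 µM and cells of 3 samples received vehicle. The sources used here give neither the inhibitor's name, nor the time of treatment, nor the origin of the line, which is the single line studied. The labels do not say that samples of a group were grown separately, so the p-values speak only of differences among these particular samples, which could be technical.

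Growth factor receptors couple a blood cell's survival, division and maturation to the factors around it. Csf1r, Kit and Flt3 are receptor tyrosine kinases, which carry their own kinase domain. The others belong to the cytokine receptor family, which has no enzyme of its own and works through JAK kinases and STAT transcription factors. GM-CSF and IL-3 each bind a specific alpha chain that pairs with a shared beta chain, and mice have a further beta chain, Csf2rb2, that serves IL-3. Kit and Flt3 mark stem and progenitor cells, Csf1r the monocyte and macrophage lineage, Csf3r the neutrophil lineage and Epor red cell precursors. The cells were grown in medium conditioned by WEHI cells, which is commonly used as a source of IL-3.

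With the IKK inhibitor, Csf1r rose 2.35-fold, the beta chain genes Csf2rb2 and Csf2rb rose 1.47-fold and 1.29-fold, and Csf2ra, the GM-CSF alpha chain, rose 1.15-fold. Kit was the member that fell, to 0.688 of its vehicle level. Il3ra, Csf3r, Flt3 and Epor did not pass the test, and their fitted folds lay between 0.961 and 1.05. In all, 4 of the 9 receptor genes were called higher and 1 lower by limma at a Benjamini-Hochberg adjusted p under 0.05, beside 7.10% of all genes called higher, 6.75% called lower and 13.9% called in either direction. Of the 9, 1 had means under 100 units in both groups, against 6608 of all 19847 genes. The shares called were not compared among genes of like intensity. The median log2 fold change was 0.07 over the 9 receptor genes and 0.01 over all genes tested. The 3 inhibitor arrays lay above the 3 vehicle arrays for 5 receptor genes and below them for 1, an absence of overlap that 33.0% of all genes showed in either direction. All values are intensities on a linear scale as the authors deposited them, and log2 fold changes are those of the limma fit, inhibitor over vehicle. All 9 genes lay above the floor of 16 intensity units on every array, so the floor did not touch them.

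**Figure D1:**
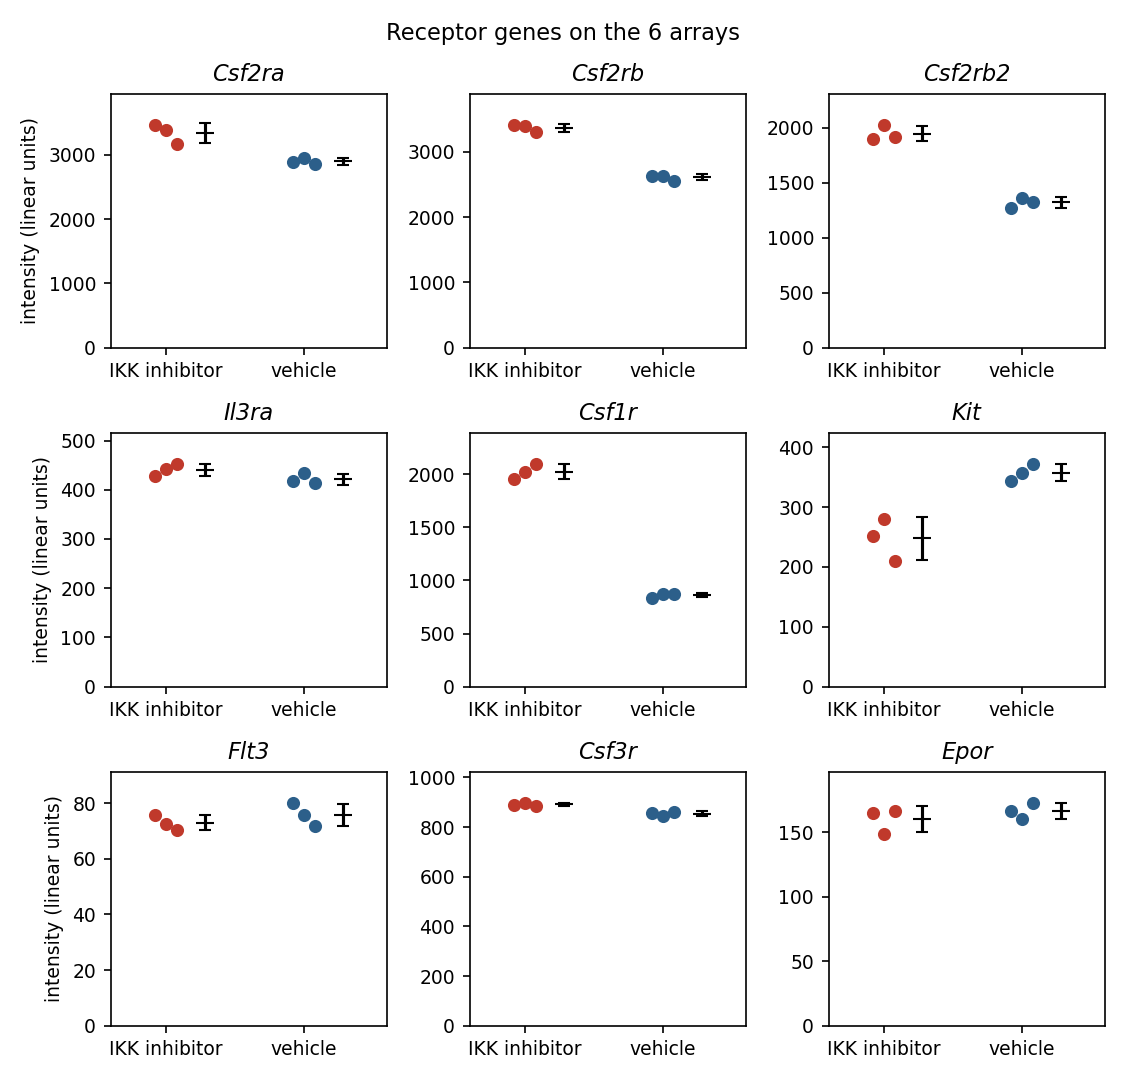
Intensity of each receptor gene (linear units, each panel from 0) on the 3 IKK inhibitor arrays (red) and the 3 vehicle arrays (blue), with the mean and SD of each group in black. The groups stand apart for Csf1r, Csf2rb2, Csf2rb, Csf2ra, Csf3r and Kit and overlap for Il3ra, Flt3 and Epor.

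Median intensities of the arrays ran from 112 to 124, and log2 values correlated at 0.993 to 0.997 across genes within a group and at 0.988 to 0.991 between groups. Genes are not independent replicates in these correlations. The labelled cell type was checked on marker genes. Of all genes, 7.10% were called higher and 6.75% lower. Of 12 monocyte and macrophage markers 9 were called higher and 0 lower, their summed intensity being 17154 to 18158 with the inhibitor and 10002 to 10376 with vehicle. Of 14 granule and neutrophil markers 8 were higher and 4 lower, with sums of 21353 to 22162 with the inhibitor and 20622 to 21352 with vehicle. Lyz2, which encodes lysozyme, averaged 5522 with the inhibitor and 4046 with vehicle, and Ctsg, which encodes cathepsin G, 4896 with the inhibitor and 4918 with vehicle. Bulk arrays cannot tell fewer cells of a type from less RNA per cell. The number of arrays limits the precision of every value.

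Csf1r, the receptor tyrosine kinase for CSF1 and IL-34, had intensities of 1955, 2021 and 2095 on the inhibitor arrays and of 839, 877 and 869 on the vehicle arrays. The lowest inhibitor array was thus above the highest vehicle array by far more than the spread within either group. The means were 2024 ± 69.6 with the inhibitor and 862 ± 20.1 with vehicle (SD, n = 3 each), and the log2 fold change was 1.23 ± 0.05 (SE) with an adjusted p of 6.57e-05 by limma. The 95% interval of the fold was 2.16 to 2.55. Of all genes tested, 80 (0.403%) had a larger log2 fold change. The call held under all 21 alternative settings, with log2 fold changes between 1.20 and 1.26. Some of these settings, such as other floors and probe set choices, could not change the Csf1r fold change. The gene has 1 probe set and lay above every floor. Beside it, the macrophage antigen genes Adgre1, Itgam and Cd68 rose by 1.43, 0.69 and 0.54 on the log2 scale, and the median of the 12 monocyte and macrophage markers was 0.62. Among these 12, Fcgr1 (log2 fold change 0.23), Ccr2 (-0.05) and Cx3cr1 (-0.12) did not pass. The part of these markers in the Csf1r result was not tested.

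Of the chains of the GM-CSF and IL-3 receptors, 3 of 4 were called higher, beside 7.10% of all genes. Csf2rb, the common beta chain gene, had intensities of 3404, 3400.3 and 3298 on the inhibitor arrays and of 2635, 2630.1 and 2556 on the vehicle arrays. No inhibitor array came near the vehicle range, and within-group spread was small, with an SD smaller than that of all but 3.23% of genes. The log2 fold change was 0.37 ± 0.05 (SE), with an adjusted p of 0.00396 by limma and a 95% interval of the fold of 1.20 to 1.39. Csf2rb2, the IL-3 beta chain gene, had 1895, 2024 and 1918 on the inhibitor arrays and 1272, 1364 and 1329 on the vehicle arrays. Again every inhibitor array was above every vehicle array. Its log2 fold change was 0.56 ± 0.05 (SE), with an adjusted p of 0.00136 by limma and a fold interval of 1.35 to 1.61. Both calls held under all 21 alternatives, at log2 fold changes of 0.34 to 0.38 for Csf2rb and 0.52 to 0.58 for Csf2rb2. The pair lie next to each other on chromosome 15 and are close copies, so their values are reported as uncertain in how far each probe set reads its own gene alone.

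Csf2ra, the alpha chain gene specific to GM-CSF, had intensities of 3459, 3389 and 3173 on the inhibitor arrays and of 2894, 2946 and 2850.2 on the vehicle arrays. The groups did not overlap, but inhibitor array 3 was closer to the vehicle arrays than the other two. The log2 fold change was 0.20 ± 0.05 (SE) with an adjusted p of 0.0487 by limma, just inside the threshold. The adjusted p was 0.0806 with quantile normalization and 0.211 with each array centred on its median. It was 0.159 and 0.0855 without inhibitor arrays 1 and 2 and 0.121, 0.122 and 0.157 without vehicle arrays 1, 2 and 3, while the log2 fold change stayed between 0.17 and 0.24 under every alternative. For Il3ra, the alpha chain gene specific to IL-3, the intensities were 428, 442 and 452 with the inhibitor and 417, 433 and 413 with vehicle. These ranges overlapped. Its log2 fold change of 0.07 (95% interval -0.05 to 0.18) did not pass (adjusted p = 0.472 by limma).

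Because the beta chains passed and Il3ra did not, the difference itself was computed array by array, for 4 pairs of chains picked after their values had been seen. The log2 fold change of Csf2rb exceeded that of Il3ra by 0.30 ± 0.04 and that of Csf2ra by 0.16 ± 0.02 (SE). Csf2rb2 exceeded Il3ra by 0.49 ± 0.04 and Csf2rb by 0.19 ± 0.05 (SE). In each pair the 3 inhibitor arrays lay above the 3 vehicle arrays, and the two-sided exact permutation test gave p = 0.1, also after adjustment over the 4 pairs, which is the smallest p that 3 arrays against 3 can give.

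**Figure D2:**
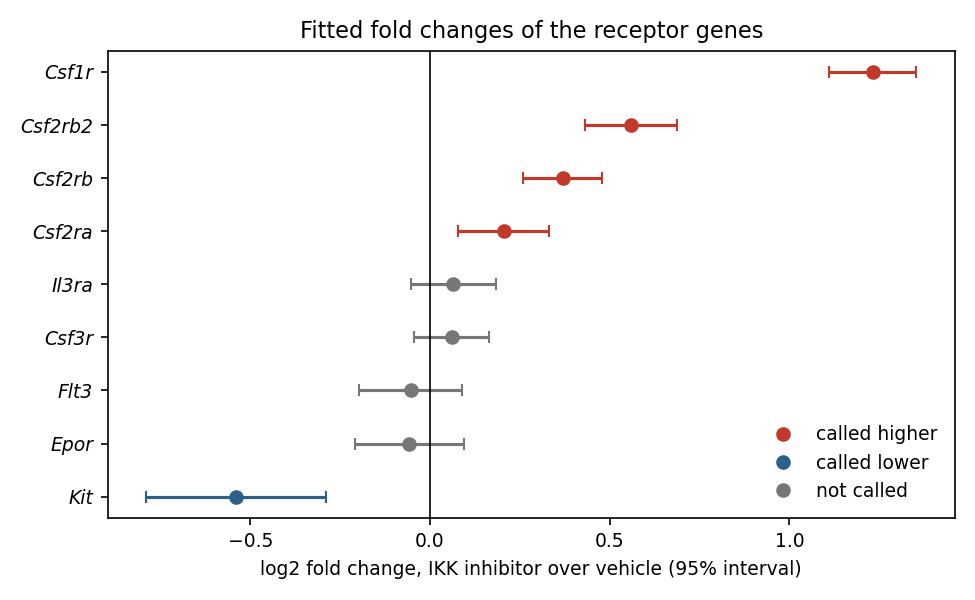
Log2 fold change (IKK inhibitor over vehicle, horizontal axis) of the 9 receptor genes with the 95% interval of the limma fit; red genes were called higher, blue lower and grey not called. The interval of Csf1r starts at 1.11, that of Csf2ra reaches down to 0.08, and those of Il3ra, Csf3r, Flt3 and Epor span 0.

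Kit, the receptor for stem cell factor on progenitors and mast cells, had intensities of 252, 280.4 and 210.3 on the inhibitor arrays and of 344, 357 and 372 on the vehicle arrays. All inhibitor arrays were below all vehicle arrays, as in 17.2% of all genes, and the inhibitor arrays were the more scattered, with means of 248 ± 35.3 with the inhibitor and 358 ± 13.9 with vehicle (SD, n = 3 each). The fall of 0.54 ± 0.11 on the log2 scale (SE) had an adjusted p of 0.0190 by limma and a 95% interval of the fold of 0.579 to 0.818. Of all genes tested, 93 (0.469%) had a more negative log2 fold change. The adjusted p was 0.0625 without inhibitor array 1 and 0.0505, 0.0734 and 0.0738 without vehicle arrays 1, 2 and 3. Inhibitor array 3 held the lowest Kit value, and without it the log2 fold change was -0.43 (adjusted p = 0.0264), whereas without inhibitor array 2 it was -0.63 (0.0119). The 12 mast cell and basophil markers had summed intensities of 966 to 1091 with the inhibitor and 1055 to 1116 with vehicle. Among them the histidine decarboxylase gene Hdc was called lower (log2 fold change -0.31), as were 6.75% of all genes. The other 11 did not pass, with log2 fold changes from -0.21 for Tpsab1 to 0.18 for Mcpt4, both mast cell protease genes. The part of these 12 markers in the Kit result was not tested.

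Flt3, the receptor for FLT3 ligand on early progenitors, had intensities of 75.9, 72.5 and 70.5 with the inhibitor and of 80.0, 75.6 and 71.8 with vehicle. The ranges overlapped. Whether the transcript was above background cannot be said, since the table holds no detection calls. The log2 fold change of -0.05 had a 95% interval of -0.20 to 0.09. Csf1r, Kit and Flt3, the receptor tyrosine kinases among the members, therefore included a rise, a fall and a gene that did not pass.

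Csf3r, the G-CSF receptor of neutrophils, had intensities of 891, 896 and 886 with the inhibitor and of 857, 844 and 863 with vehicle. The inhibitor arrays were all above the vehicle arrays, but only by a few percent, and 15.8% of all genes were arranged this way. The means were 891 ± 4.78 with the inhibitor and 854 ± 9.57 with vehicle (SD, n = 3 each), and 0.343% of genes had a smaller within-group SD. Its log2 fold change was 0.06, with a 95% interval of -0.04 to 0.17 and an adjusted p of 0.455 by limma, so a rise above 1.12-fold was outside the interval. Other neutrophil genes did pass in the same cells, among them Mmp9 (log2 fold change 1.45), S100a8 (0.84), S100a9 (0.72) and Ngp (0.74). Mpo, Ms4a3, Prtn3 and Elane, genes of earlier granulocyte and monocyte precursors, fell by 2.62, 0.56, 0.28 and 0.24 on the log2 scale. Ctsg, of the same precursors, and the secondary granule gene Ltf had log2 fold changes of -0.01 and 0.02 and did not pass (adjusted p = 0.961 and 0.894 by limma).

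Epor, the erythropoietin receptor, had intensities of 165, 149 and 167 with the inhibitor and of 167, 160.4 and 172 with vehicle. The groups overlapped, and the log2 fold change of -0.06 (95% interval -0.21 to 0.09) did not pass (adjusted p = 0.642 by limma). Of 8 erythroid markers 0 were called by limma, beside 13.9% of all genes, and 1 had an unadjusted p under 0.05. The red cell transcription factor genes Gata1 and Klf1 were at 106 and 115 with the inhibitor and at 108 and 114 with vehicle.

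**Figure D3:**
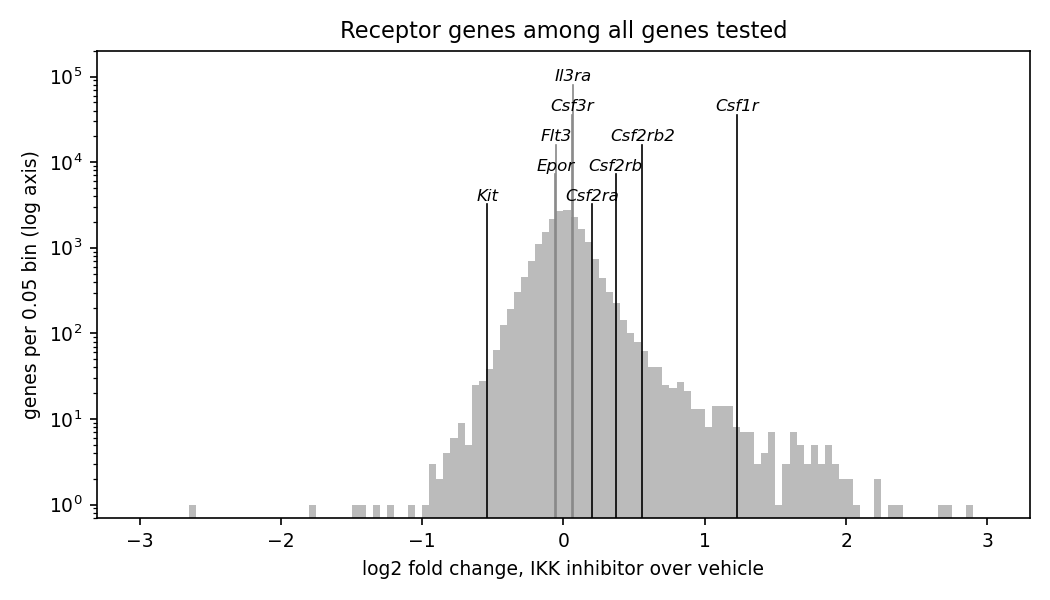
Distribution of log2 fold changes (horizontal axis, IKK inhibitor over vehicle) of all 19847 genes tested, as genes per bin on a log axis, with the 9 receptor genes marked (black lines called, grey lines not called). Csf1r stands far out on the right and Kit on the left, with 0.403% and 0.469% of genes beyond them, while Il3ra, Csf3r, Flt3 and Epor lie in the centre.

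The 250 bases upstream of the transcription start are shown for Csf2ra, Csf2rb2 and Kit, because these called receptor genes moved in different directions. The sequences are RefSeq promoters of the GRCm38.p6 build. Capitals mark matches on either strand to GAGGAA, the core of the purine box bound by the myeloid factor PU.1, and to GGG followed by any 5 bases and CC, a loose form of the site bound by NF-kB, the factor that IKK kinases release. Csf2ra is read at chr19:61228419-61228668 on the minus strand, Csf2rb2 at chr15:78305722-78305971 on the minus strand and Kit at chr5:75574737-75574986 on the plus strand, each 5′ to 3′ towards the start.
Csf2ra: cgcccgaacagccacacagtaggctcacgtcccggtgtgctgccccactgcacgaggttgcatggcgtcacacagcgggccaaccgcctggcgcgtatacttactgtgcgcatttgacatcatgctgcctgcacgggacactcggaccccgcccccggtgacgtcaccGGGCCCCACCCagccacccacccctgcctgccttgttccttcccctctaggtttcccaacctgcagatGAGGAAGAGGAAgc
Csf2rb2: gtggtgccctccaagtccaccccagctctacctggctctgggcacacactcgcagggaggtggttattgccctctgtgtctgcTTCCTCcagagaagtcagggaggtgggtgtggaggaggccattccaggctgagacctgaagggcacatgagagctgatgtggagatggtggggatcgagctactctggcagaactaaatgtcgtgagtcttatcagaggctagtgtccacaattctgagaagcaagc
Kit: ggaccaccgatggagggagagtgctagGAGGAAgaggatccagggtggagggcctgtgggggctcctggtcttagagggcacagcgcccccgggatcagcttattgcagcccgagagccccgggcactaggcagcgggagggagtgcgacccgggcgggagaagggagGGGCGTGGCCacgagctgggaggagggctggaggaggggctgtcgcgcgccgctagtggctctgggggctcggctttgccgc

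The Csf2ra sequence ends with 2 purine boxes in tandem, which begin 14 and 8 bases before the start used, and holds 2 overlapping matches to the NF-kB pattern that begin 82 and 81 bases before it. The Csf2ra gene is annotated up to base 61228461, so the last bases of the sequence, with both purine boxes, lie inside the annotated gene. Csf2rb2 had a purine box, on the opposite strand, 167 bases before the start and no match to the NF-kB pattern. Kit, which fell, had both a purine box at 223 bases and an NF-kB pattern at 82 bases. Over the 7 receptor genes searched, 4 held the purine box and 5 the NF-kB pattern, while among 27025 promoters of the same length 23.1% and 45.4% did. Csf1r and Csf2rb, both called higher, were left out of the search. The counts over the 7 genes therefore do not include Csf1r, the receptor gene that rose most. Among the receptor genes that did not pass, Csf3r held both motifs, Il3ra and Epor the NF-kB pattern and Flt3 neither. The sequences searched for Csf3r and Il3ra lie inside their annotated genes. The GATA motif AGATAA was found in Epor alone of the 7, 54 bases before the start (10.3% of all promoters), and the STAT pattern TTCNNNGAA in Csf2rb2 alone, at 15 bases (7.18%). These are matches of letters and not sites known to be bound.

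Of 8 genes for the receptors' ligands, 1 was called higher and 0 lower, a share close to the 13.9% called among all genes, and 2 had an unadjusted p under 0.05. Their median log2 fold change was 0.14, beside 0.01 over all genes. Csf1, the main ligand of Csf1r, had intensities of 688, 702 and 651 with the inhibitor and of 564, 538 and 567 with vehicle. These groups did not overlap, and the log2 fold change was 0.29 ± 0.05 (SE) with an adjusted p of 0.0157 by limma. The call was lost without inhibitor array 1 and without vehicle arrays 2 and 3, where the adjusted p reached 0.0691. The values of Il34, the other Csf1r ligand, were 243, 211 and 254 with the inhibitor and 171, 195 and 216 with vehicle, which overlap (log2 fold change 0.29, adjusted p = 0.136 by limma). Csf2, which encodes GM-CSF, averaged 123 ± 15.2 with the inhibitor and 106 ± 12.7 with vehicle, and Flt3l 208.0 ± 10.2 with the inhibitor and 207.9 ± 4.78 with vehicle (SD, n = 3 each). Kitl (log2 fold change 0.14), Il3 (0.14), Csf3 (-0.03) and Epo (-0.04) did not pass and lay at or below 86.1 intensity units on all arrays.

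Among the signal transducers that act below these receptors, 6 of 25 were called higher and 0 lower, beside 7.10% and 6.75% of all genes, with a median log2 fold change of 0.15. The inhibitor arrays lay above the vehicle arrays for 17 of the 25, beside 15.8% of all genes. Fgr, a myeloid kinase of the Src family, rose most, by 1.09 ± 0.05 on the log2 scale (SE), with intensities of 277, 266 and 276 on the inhibitor arrays and of 132, 123 and 132 on the vehicle arrays. Jak2, the kinase attached to the beta chain and to Epor, rose by 0.27 to 1078 ± 18.5 with the inhibitor, against 894 ± 52.1 with vehicle (SD, n = 3 each). Tyk2, Syk, the adaptor gene Tyrobp and the PI3-kinase subunit gene Pik3r1 rose by 0.26, 0.28, 0.20 and 0.26 on the log2 scale. With any single array left out, the adjusted p of Jak2 lay between 0.0524 and 0.0973 and that of Tyk2 between 0.0628 and 0.147, so neither call held. Those of Syk (0.0346 to 0.0999), Tyrobp (0.0449 to 0.110) and Pik3r1 (0.0256 to 0.0736) held without 1, 1 and 2 of the 6 arrays. Stat5a and Stat5b, the main STAT factors of the IL-3 and GM-CSF receptors, had log2 fold changes of -0.05 and 0.07 and did not pass.

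Genes that damp receptor signalling were called higher in 6 of 18 cases and lower in 1, beside 7.10% and 6.75% of all genes, with a median of 0.09. Cbl, a ubiquitin ligase that sends Csf1r and Kit for degradation, rose by 0.28 ± 0.05 (SE), with intensities of 2067, 2075 and 2094 on the inhibitor arrays and of 1669, 1741 and 1719 on the vehicle arrays. It was called whichever array was left out. Socs3 rose by 0.33, Spred1 by 0.24, Adam17, the protease that sheds Csf1r, by 0.20, Sh2b3 by 0.19 and Cish by 0.27 on the log2 scale. The calls of Spred1, Adam17, Sh2b3 and Cish were lost with any array left out, at adjusted p between 0.0504 and 0.157, and that of Socs3 without vehicle array 2 (0.0557). With the mean of its probe sets in place of the brightest, Socs3 was not called either, at a log2 fold change of 0.19. Socs2 fell by 0.45 ± 0.05 (SE), with 485, 506 and 463 on the inhibitor arrays and 657, 669 and 653 on the vehicle arrays. With each array centred on its median, the calls of Cbl, Jak2, Tyk2, Syk, Tyrobp, Pik3r1, Spred1, Adam17, Sh2b3, Cish and Csf1 were also lost.

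Genes known as STAT5 targets moved in both directions, with 4 of 10 higher and 4 lower, beside 7.10% and 6.75% of all genes, and a median of 0.10. Bcl6 rose by 1.20, Pim2 by 0.44, Mcl1 by 0.44 and Cish by 0.27 on the log2 scale, while Pim1, Socs2, Id1 and Ccnd2 fell by 0.50, 0.45, 0.40 and 0.22. The adjusted p of Ccnd2 lay between 0.0273 and 0.126 when an array was left out and was under the threshold in 1 of these 6 settings. Osm and Bcl2l1 had log2 fold changes of 0.11 and 0.10 and did not pass. The list does not separate genes that STAT5 raises from genes that it lowers. The direction of STAT5 activity therefore cannot be read from this split.

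Of 26 transcription factor genes listed by hand as possible regulators of these receptors, 5 were called higher and 2 lower, beside 7.10% and 6.75% of all genes, with a median of 0.03. Irf8, a factor of the monocyte lineage, rose by 0.68 ± 0.06 (SE), with intensities of 482, 524 and 482 on the inhibitor arrays and of 303, 321 and 301 on the vehicle arrays. Egr1 rose by 0.77, Mitf, which acts downstream of Kit in mast cells, by 0.50, Tfeb by 0.32 and Ets2 by 0.27 on the log2 scale. Myc fell by 0.35 and Gfi1, a repressor of monocyte genes, by 0.34. Tfeb (adjusted p up to 0.0671) and Ets2 (up to 0.0559) were not called in 3 and 2 of the 6 settings that left out an array, nor with median centring. Spi1, which encodes PU.1, averaged 2931 with the inhibitor and 2661 with vehicle (log2 fold change 0.14, adjusted p = 0.144), and Runx1 1214 with the inhibitor and 1053 with vehicle (0.21, adjusted p = 0.0501, both by limma). Spi1 was called above the median intensity, with an intensity trend and with array weights, and Runx1 under 9 of 21 alternatives. Cebpa (-0.10), Gata1 (-0.03) and Gata2 (0.05) did not pass.

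**Figure D4:**
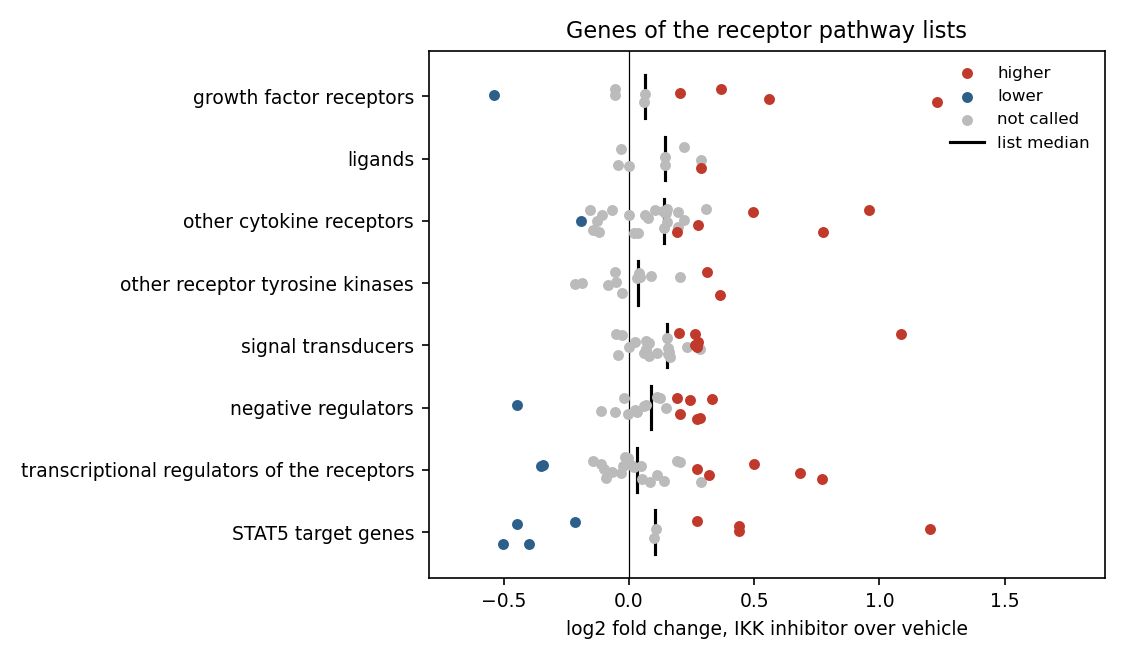
Log2 fold change (horizontal axis, IKK inhibitor over vehicle) of each gene of the growth factor receptors and of 7 pathway lists, a point per gene, with the list median as a black bar; red points were called higher, blue lower and grey not called. The medians lie between 0.03 and 0.15, and the STAT5 targets split to both sides of 0.

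Other cytokine receptors were called higher in 5 of 28 cases and lower in 1, beside 7.10% and 6.75% of all genes, with a median of 0.14. Il10ra rose by 0.96 ± 0.06 (SE), with 272, 293 and 281 on the inhibitor arrays and 136, 146 and 154 on the vehicle arrays. Il13ra1, a chain of the IL-13 receptor, rose by 0.78 and Il6ra, the IL-6 receptor, by 0.49 on the log2 scale, and these 3 calls held under all 21 alternatives. Il12rb2 (0.28) and Ifngr2 (0.19) rose and Ifngr1 fell by 0.19, but these calls were lost with any array left out, at adjusted p between 0.0653 and 0.144. Of 14 other receptor tyrosine kinases 2 were higher and 0 lower, a share close to the 13.9% called among all genes. Their median was 0.04, beside 0.01 over all genes. The called genes were the insulin receptor gene Insr (0.36) and Met (0.31). Insr was not called when any of the vehicle arrays was left out (adjusted p up to 0.0722 by limma). Met averaged 63.3 ± 0.588 with the inhibitor and 51.1 ± 0.629 with vehicle (SD, n = 3 each). It was dim enough to be tested in only 18 of the 21 alternatives, and whether it was above background cannot be said. Pdgfra (0.04) and Pdgfrb (0.03), the kinases most closely related to Csf1r, Kit and Flt3, did not pass. Over the 7 pathway lists together, 28 of 127 genes were higher and 7 lower (27.6% called), beside 13.9% of all genes. The lists hold fewer dim genes: 22 of the 127 had means under 100 in both groups, against 6608 of all 19847. When only genes above the median intensity were fitted, 1742 of these were called higher and 2208 lower, more than among all genes. Whether the lists exceed genes of like intensity was not tested.

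The genes nearest to each called receptor gene were found from log2 values over the 6 arrays, each gene centred on its mean, as those with the smallest root mean square distance. For Csf1r they were H2bc4, Hsd11b1 and Degs1, at distances of 0.0367, 0.0428 and 0.0466 on the log2 scale and log2 fold changes of 1.19, 1.25 and 1.24. For Kit they were Mrps25, Dhx58 and Taf1a (distances 0.0236, 0.0413 and 0.0422), which fell by 0.54, 0.55 and 0.56. Csf2rb2 was closest to Chst15, Lsp1 and the 5-lipoxygenase gene Alox5 (0.0218 to 0.0223), Csf2rb to the platelet-activating factor receptor gene Ptafr, Rbms1 and Vmn1r203 (0.0155 to 0.0186) and Csf2ra to Zhx2, Trim8 and Ncoa6 (0.0129 to 0.0192).

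**Figure D5:**
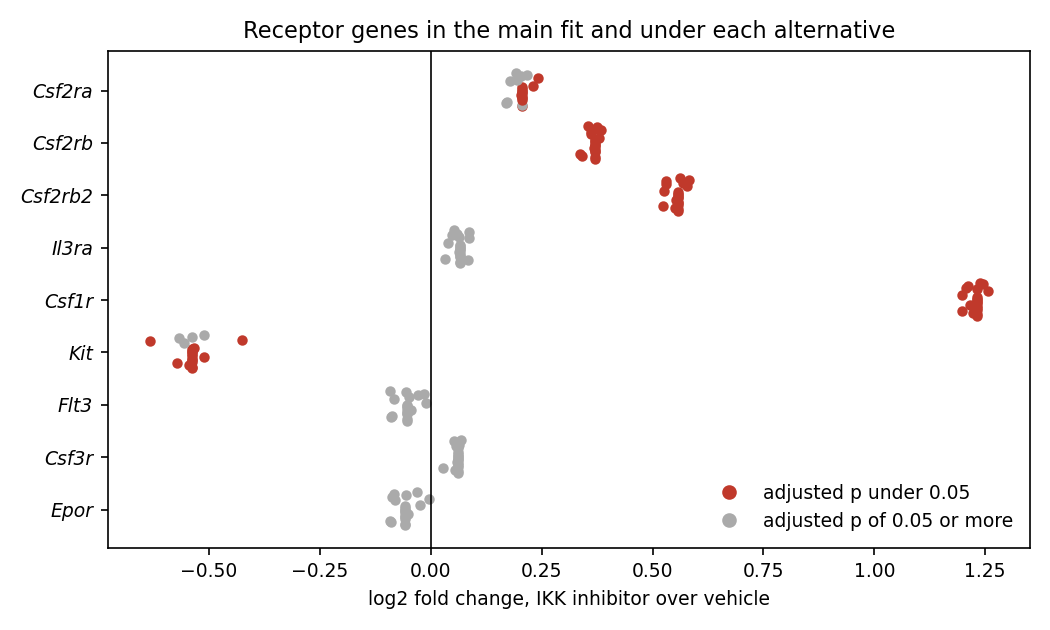
Log2 fold change (horizontal axis, IKK inhibitor over vehicle) of each receptor gene in the fit as reported and under each alternative way of processing the arrays, a point per setting; red points have an adjusted p under 0.05 and grey points do not. No gene changed sign, and the points of Csf1r, Csf2rb and Csf2rb2 are all red, while those of Csf2ra and Kit are mixed. Settings that could not move a receptor gene's fold change, such as other floors, are among the points.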

How the data were processed

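The deposited intensity values came from Affymetrix Expression Console, as the submitters' processing notes state, and the sources used here give no version, summarization or normalization by the authors. The values ran from 0.71 to 8186 and were read as linear. Values below 16 (5.94%) were set to 16 and log2 was taken. Probe sets with several gene symbols (1621) or none listed (12102) were left out, the brightest of a gene's probe sets was used, and 91 genes that never rose above the floor went untested. Groups were taken from the treatment label. The comparison of inhibitor with vehicle used limma's lmFit and eBayes (version 3.58.1, R 4.3.3), two-sided and without covariates, and p-values were adjusted over 19847 genes by the Benjamini-Hochberg method. On simulated arrays of 19847 genes the fit recovered 50 of 50 genes raised by 1.5 on the log2 scale. It recovered 33 of 50 raised by 0.6 and 8 of 50 raised by 0.3. The simulation changed only 50 genes at each size, with noise independent between genes, whereas 13.9% of genes were called in the data. These rates therefore need not hold for the data. The receptor genes, the pathway and marker lists and the tests were chosen with earlier results of these data known. Named genes are the 9 receptor genes, all ligand genes, up to 6 called genes per list and direction, 10 regulators fixed by name and the 3 nearest profiles of each called receptor gene; markers, Osm, Bcl2l1, Pdgfra and Pdgfrb were named after their values were seen. Of 136 listed pathway genes 127 were tested and the rest are not analysed here. The alternatives were 21 other settings of scaling, floor, filter, probe set, prior, weights, threshold and arrays.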

Additional observations from a re-analysis of the deposited data

How the results depend on the processing

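No receptor gene changed sign under any alternative in which it was tested (19 for Flt3, 21 for the others). The calls of Csf1r, Csf2rb and Csf2rb2 held under every alternative. The absence of a call for Csf3r, Flt3, Il3ra and Epor held under every alternative in which the gene was tested. For the receptor genes, however, the other floors, intensity filters, probe set choices, thresholds, replicate block and intensity trend could not change the log2 fold change. The threshold of 0.1 could not lose a call. The number of receptor genes called higher was 4 as reported and 3 or 4 elsewhere. The number called lower was 1 as reported, 0 at an adjusted p under 0.01 and 0 to 1 when an array was left out. The number of pathway genes called higher was 28 as reported. The same fit read at another threshold gave 11 at an adjusted p under 0.01 and 38 at an adjusted p under 0.1. The number was 18 with a replicate block, 13 with median centring and 13 to 23 when an array was left out. With array weights it was 37, above the median intensity 39 and with an intensity trend 42. The cause of these other changes was not tested, except that leaving out an array leaves fewer samples. With a replicate block Csf2ra had an adjusted p of 0.0859 and Kit of 0.0472, and Csf1, Jak2, Syk, Tyrobp, Spred1, Adam17, Sh2b3, Cish, Il12rb2, Ifngr1, Ifngr2 and Ccnd2 were not called. The replicate numbers were not taken as pairs, since no pairing is stated. Deviations from the group means correlated at 0.241, 0.133 and -0.0935 for same-numbered arrays and at -0.287 to 0.177 for the others. With 3 arrays per group, whose deviations sum to 0, these values cannot decide whether the arrays were paired. Over all genes, 1409 were called higher and 1340 lower as reported, 681 lower with the block, and 2132 higher and 2202 lower with array weights. When an array was left out 788 to 1510 were higher and 395 to 1300 lower, both fewest without vehicle array 2. It was 662 higher and 322 lower at an adjusted p under 0.01, and 2029 lower at an adjusted p under 0.1. Above the median intensity 2208 were lower, and with an intensity trend 2220. Flt3, as a dim gene, was not among those above the 25th percentile or the median of intensity. Signal over background is unknown for all genes.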

Other observations

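Beside 13.9% of all genes called in either direction, the other marker lists had 0 to 2 calls each. Of 8 dendritic cell markers Itgax was higher (log2 fold change 0.41) and 0 lower. Among 5 megakaryocyte markers, Gp9 fell by 0.33 and Vwf rose by 0.42 on the log2 scale. Of 9 B cell markers the adaptor gene Blnk was higher (0.32) and the surrogate light chain gene Igll1 lower (-0.74). Of 9 T cell markers 0 were called by limma and 0 had an unadjusted p under 0.05. The summed intensities were 890 to 985 with the inhibitor and 859 to 908 with vehicle for dendritic cell markers, 903 to 1053 with the inhibitor and 953 to 1082 with vehicle for T cell markers, and 825 to 877 with the inhibitor and 871 to 928 with vehicle for B cell markers.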
